A study of Rattus norvegicus with 8 samples.

Results

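The ribosomal protein genes were taken as every row of the feature list whose symbol begins with Rps or Rpl and a digit, or with Rplp. Rows named as a pseudogene, as a like-named paralog or as an Rps6k kinase were left out, as was the single gene for a ribosomal protein binding protein. Of 32623 rows in all, 105 began with these letters and 79 were members, of which 50 code for proteins of the large subunit (Rpl, with the stalk proteins Rplp) and 29 for proteins of the small subunit (Rps). These 79 rows carry 73 symbols, since Rpl21 is listed under 4 identifiers and Rpl32, Rpl7a and Rps27a under 2 each, and 78 of them had a UMI (a unique molecular identifier, the tag that counts a single captured mRNA) in at least 1 cell. Rps19 and Rps6 were picked on their UMI levels in the severe libraries, which were known to be high, so their values there are given as a description and the question is how far the other members followed.

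The data are single-cell 3′ RNA libraries (10x Chromium, version 3 chemistry) of spinal cord from female Wistar rats aged 8 weeks, taken 7 days after surgery. A weight of 10 g fell on the exposed cord at vertebra T9 from 50 mm (severe), 25 mm (moderate) or a lower height (mild), and the sham group had the laminectomy, which the injured rats had too, and no contusion. Each of the 4 groups has 2 libraries from the cord segment around the lesion. The labels do not say which animals a library came from, so any p-value measures the spread between these libraries, and how injury grade lines up with the day of dissociation or of sequencing is not given, so grade and batch cannot be told apart.

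Ribosomal proteins bind ribosomal RNA to form the small subunit, which decodes mRNA, and the large subunit, which joins amino acids. Because each ribosome holds a single copy of nearly every ribosomal protein, cells make the family in step, and mRNAs of its members start with a run of pyrimidines (a 5′ terminal oligopyrimidine tract) through which mTORC1 signalling controls their translation. Mammalian genomes also carry many processed copies of these genes, which resemble the spliced mRNA. Where a gene and its copy are both in the feature list, a read that fits them equally well is not counted by the pipeline used here. What became of reads that fit a copy outside the list was not tested.

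The starts of 6 members are printed because they bound the range described further on: Rps19, Rps6, Rpl38 and Rpl26 were highest in the severe libraries relative to the family, and Rps15 and Rps10 were lowest. Each sequence comes from RefSeq (build GRCr8) and runs 5′ to 3′ on the gene's strand from 60 bases before to 30 bases after the annotated start, with the pyrimidine motif CTTTC in capitals where it lies within 30 bases of the start.
Rps19 (chr1:89608628-89608717, plus strand): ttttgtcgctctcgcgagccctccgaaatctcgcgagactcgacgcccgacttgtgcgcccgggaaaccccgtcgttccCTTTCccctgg
Rps6 (chr5:106420511-106420600, minus strand): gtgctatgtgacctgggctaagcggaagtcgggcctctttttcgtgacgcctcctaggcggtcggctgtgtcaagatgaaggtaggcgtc
Rpl38 (chr10:100200375-100200464, plus strand): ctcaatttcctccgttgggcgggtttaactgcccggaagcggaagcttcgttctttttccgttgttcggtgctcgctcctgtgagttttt
Rpl26 (chr10:54109632-54109721, plus strand): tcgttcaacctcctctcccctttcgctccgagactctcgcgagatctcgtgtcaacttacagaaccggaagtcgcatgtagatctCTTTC
Rps15 (chr7:10068086-10068175, minus strand): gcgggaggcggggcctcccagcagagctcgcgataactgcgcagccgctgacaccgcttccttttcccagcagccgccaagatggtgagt
Rps10 (chr20:5700715-5700804, minus strand): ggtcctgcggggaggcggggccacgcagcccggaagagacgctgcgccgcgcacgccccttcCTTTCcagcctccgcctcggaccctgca

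RefSeq held a start for 58 of the 73 symbols, in 59 entries. CTTTC stood on the gene's strand within 30 bases of the start in 31 of these 59 (52.5%), against 2573 of all 33469 entries (7.69%). The letters of the opposite strand, GAAAG, stood there in 1.69% of the members and in nearly the same share of all entries as CTTTC. The members were thus rich in the motif on the gene's strand. Of the 6 printed, Rps19, Rpl26 and Rps10 held it there, and Rps6, Rpl38 and Rps15 did not. Lack of CTTTC is not lack of a pyrimidine tract. Rps15 has another pyrimidine run across the annotated start, the run of Rpl38 ends just before the start, and Rps6 has such a run further before it. In Rpl26 the motif ends the printed stretch and in Rps19 it lies near the end of it, so in neither is it at the annotated start. Which of these runs begin the mRNA was not tested.

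The 8 libraries held 68658 cells and 731171182 UMIs, from 31482153 to 131045446 UMIs per library. After filters on mitochondrial share, doublets and outlying depth, 55455 cells remained, and 40231 of them (72.5%) fell in a gate. Such cells had UMIs for at least 3 markers of a cell type, with no other type at over 0.5 times as many. Any pair of libraries shared 5 to 40 cell barcodes, at most 0.452% of the smaller library. Sham replicate 1 stood apart, with 3380 gated neutrophils and 179 macrophages/microglia, whereas sham replicate 2 had 1 and 2057. Gates were used in a library where they held at least 20 cells, which left macrophages/microglia (24457 cells), oligodendrocyte precursors (3126) and oligodendrocytes (3441) in all 8 libraries, and T/NK cells (1026) and fibroblasts (959) in 7, without sham replicate 2. Of the macrophages/microglia, 1531 lay at the cut of 3 markers, and the median cell held 6 of the 8 markers listed and 1 marker of the next best type. Of the 15224 ungated cells, 8159 had at least 3 markers of a type but too many of another, and 4589 were 1 marker short.

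The share of UMIs that came from ribosomal protein genes followed the cell type. In macrophages/microglia it was 16.2% and 16.2% in the sham libraries, 12.0% and 12.9% in mild, 14.8% and 10.7% in moderate, and 12.5% and 14.9% in severe. Both sham libraries were above all 6 injured libraries, and the 3 injury grades overlapped. T/NK cells held the most, 29.5% ± 5.59 (SD, n = 7 libraries), and were above macrophages/microglia in 7 of 7 libraries, by 1.12 ± 0.10 on the log2 scale (mean ± SD). Fibroblasts held 15.6% ± 2.26 (n = 7) and oligodendrocyte precursors 14.7% ± 3.26 (n = 8), and their order with macrophages/microglia (13.8% ± 2.04, n = 8) was not the same in every library. Mature oligodendrocytes held 5.28% ± 0.665 (n = 8), below their precursors in 8 of 8 libraries, and neutrophils 3.61% ± 1.38 (n = 7). In the erythroid gate, which 2 severe libraries filled, the share was 0.472% and 0.678%. In oligodendrocyte precursors the share ran from 9.01% in sham replicate 1 to 19.2% in severe replicate 2. There both severe libraries, at 17.6% and 19.2%, were above the other 6. The severe libraries were also highest in fibroblasts (18.1% and 18.4%, against 12.8% to 17.1% in the others). In endothelial cells they held 17.0% and 17.7%, against 12.4% and 12.2% in sham. They were not highest in macrophages/microglia, oligodendrocytes, T/NK cells or neutrophils.

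**Figure D1:**
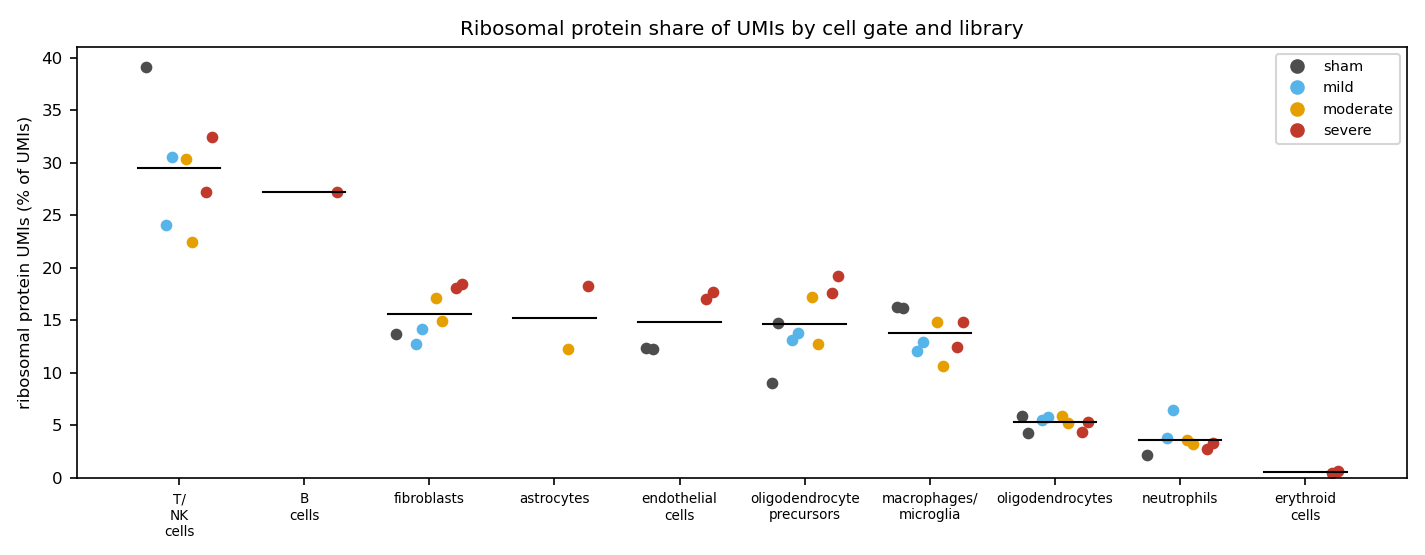
Ribosomal protein UMIs as a percent of all UMIs (y axis) in each cell gate (x axis), with a point for each library of at least 20 gated cells, coloured by group, and a line at the mean over libraries. T/NK cells average 29.5%, oligodendrocytes 5.28%, and the 2 erythroid points lie at 0.472% and 0.678%.

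Within the family, a member's level is given as its UMIs per 1000 ribosomal protein UMIs of the same gate and library, a measure that does not change when the whole family rises or falls. It is no measure of molecules per ribosome, because reads shared with listed copies are lost and the kit reads the 3′ end. In macrophages/microglia Rpl41 (the shortest ribosomal protein) stood highest at 49.9 ± 11.2 per 1000 (mean ± SD, n = 8), then Rplp0, the base of the stalk that recruits elongation factors, at 39.7 ± 9.57, and Rps2 at 38.0 ± 8.62. Neighbours in this order overlapped. Small subunit genes made up 38.4% to 42.4% of the family's UMIs in every library.

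Of the 79 members, 69 had at least 0.1 per 1000 on average and are the ones compared within the family. The nearest inside were Rpl21 (ENSRNOG00000032803) at 0.168 and Rps18 at 0.177, and the nearest outside were Rplp2 at 0.00803 and Rpl35a at 0.00507, so no member sat close to the limit. The other 10 were Rplp2, Rpl9, Rpl39, Rps29, Rpl8, Rpl35a, both rows of Rpl7a and 2 of the 4 rows of Rpl21. Rpl39, which lines the exit tunnel of the large subunit, had 0 UMIs in all 68658 cells, and Rps29, Rpl9 and Rpl8 had 3, 3 and 8.

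Rps19, a protein of the small subunit head whose loss causes Diamond-Blackfan anaemia in humans, was far higher in the severe libraries than in any other. In macrophages/microglia it took 10.5 and 7.43 of every 1000 ribosomal protein UMIs in the severe libraries, 1.15 and 1.13 in sham, 0.315 and 0.320 in mild, and 0.513 and 0.562 in moderate. Each pair of libraries lay close together and no pair overlapped another. The severe mean was above the mean of the 4 mild and moderate libraries by 4.42 on the log2 scale (21.4-fold), where the SD between libraries of a group was 0.21, and above sham by 2.96. Severe replicates 1 and 2 held 21914 and 70044 Rps19 UMIs in this gate, and mild replicates 1 and 2 held 1758 and 1823.

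The same order stood in T/NK cells, oligodendrocytes, their precursors and fibroblasts, where the severe libraries were again highest. In T/NK cells Rps19 was at 11.9 and 8.67 per 1000 in severe, 1.20 in the single sham library, 0.318 and 0.462 in mild and 0.623 and 0.477 in moderate. In oligodendrocytes the severe values were 6.97 and 5.14, those in sham 0.869 and 0.816, and those in mild and moderate from 0.298 to 0.571. The difference between severe and the mild and moderate mean was 4.21 in oligodendrocyte precursors, 3.98 in oligodendrocytes, 4.44 in T/NK cells and 4.38 in fibroblasts. Over the 9 gates with at least 20 cells in a severe library (erythroid cells aside), the 16 severe values ran from 5.14 to 11.9 per 1000 and the 36 values of the other libraries from 0.147 to 1.51, with no overlap. The order below severe was not the same in all 9: in neutrophils the single sham library (0.693) lay below both moderate libraries (0.807 and 1.23), on 147, 4 and 14 Rps19 UMIs. The 9 gates of a library share that library, so they are no replicates of injury.

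Rps6, the small subunit protein that S6 kinase phosphorylates downstream of mTORC1, had the second largest difference of the compared members. In macrophages/microglia it stood at 1.86 and 2.37 per 1000 in severe, 0.784 and 0.438 in sham, 0.166 and 0.132 in mild, and 0.274 and 0.342 in moderate. The groups kept the order of Rps19, severe above sham above moderate above mild, again with no overlap. Severe exceeded the mild and moderate mean by 3.30 (9.86-fold) where the SD between libraries of a group was 0.24, and sham by 1.84. The difference from mild and moderate was 3.60 in oligodendrocyte precursors, 3.22 in oligodendrocytes, 3.84 in T/NK cells and 3.64 in fibroblasts. Its 16 severe values over 9 gates ran from 1.38 to 2.89 and the 36 others from 0 to 0.896.

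**Figure D2:**
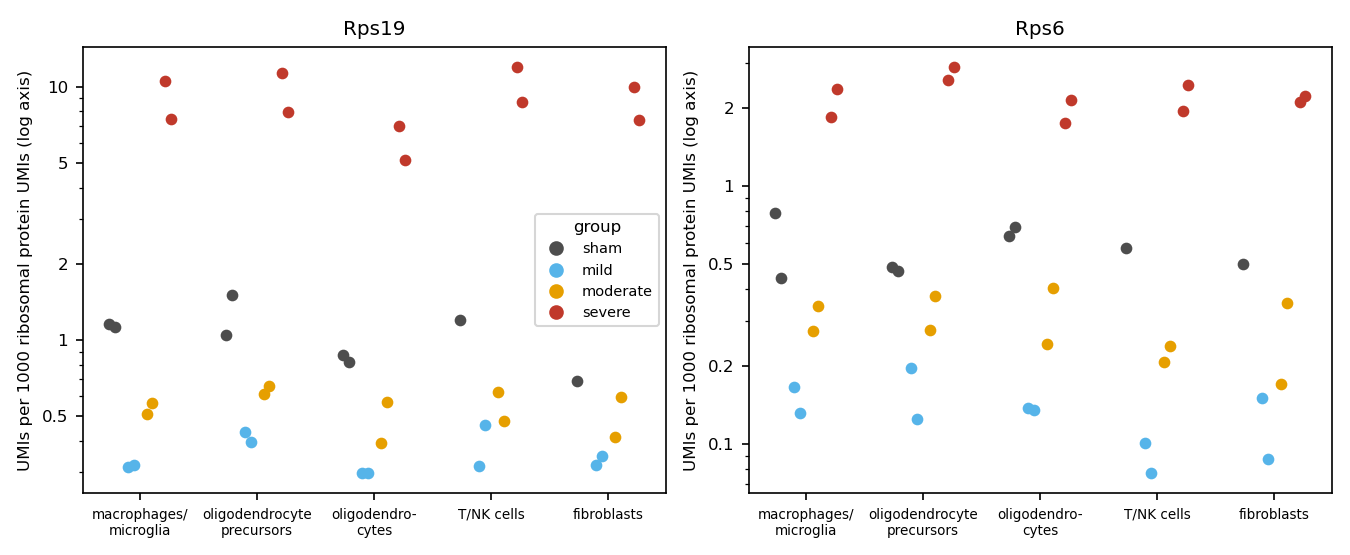
UMIs of Rps19 (left) and Rps6 (right) per 1000 ribosomal protein UMIs, on a log axis, in 5 cell gates, with a point for each library coloured by group. In each gate both severe libraries lie above every other library, for Rps19 at 5.14 or more where no other library passes 1.51.

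Both genes were low members of the family outside the severe group. In macrophages/microglia Rps19 ranked from 63 to 65 of 79 members in the 6 other libraries, and 41 and 45 in severe. Rps6 ranked from 66 to 68 in the others, and 63 and 61 in severe. A member would hold 14.5 per 1000 if the 69 were equal, so neither gene reached that level in the severe libraries. The severe libraries are thus those in which Rps19 came nearest to the usual level of the family.

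Single cells showed the same. After every macrophage/microglia cell with at least 5000 UMIs was thinned to 5000, 99.1% (95% Wilson interval 98.3 to 99.5) and 98.9% (98.4 to 99.2) of severe cells had an Rps19 UMI. The share was 17.6% (16.3 to 18.96) and 18.5% (17.2 to 19.9) in mild, 31.5% and 26.3% in moderate, and 58.2% and 57.7% in sham. Unthinned, it was 98.5% and 97.1% in severe and 36.9% and 36.3% in mild. For Rps6 the thinned share was 66.5% and 81.1% in severe, 9.25% and 8.49% in mild, 18.7% and 16.9% in moderate and 47.3% and 30.6% in sham. Thinning left out 69 of 179 cells in sham replicate 1 and 106 to 661 cells in the others. Macrophages/microglia of the severe libraries were the deepest, with a median of 14518.5 and 18095.5 UMIs against 6879 to 12202 in the others, and their median mitochondrial share was 2.55% and 2.32% against 2.15% to 5.85%. The difference stood at equal depth after thinning, and the part of the mitochondrial share in it was not tested. These intervals cover counting error only.

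Erythroid cells, which lose most of their RNA as they mature, serve as the cell type of lowest ribosomal protein share and were numerous only in the severe libraries (87 and 837 cells). Of the 939 cells of this gate in all libraries 657 lay at the cut of 3 markers, and whether their Rps19 UMIs are their own or free RNA was not tested. There Rps19 had a UMI in 3.33% (0.591 to 16.7) and 10.8% (8.60 to 13.4) of thinned cells, with median depths of 4196 and 7723 UMIs before thinning against 14518.5 and 18095.5 in macrophages/microglia. In CPM (the UMIs of a gene scaled by all UMIs of the gate and library, so that they sum to 1000000), Rps19 was at 28.8 and 35.8 in erythroid cells and at 1315 and 1105 in macrophages/microglia of the same libraries. Relative to the family it was at 6.10 and 5.28 per 1000 in erythroid cells. In the same libraries it was at 10.5 and 7.43 in macrophages/microglia and at 6.97 and 5.14 in oligodendrocytes. Behind the erythroid values stand only 11 and 241 Rps19 UMIs among 1802 and 45677 ribosomal protein UMIs.

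The other compared members did not follow Rps19 and Rps6 to the same extent. This leaves out proteins whose reads lie mostly in rows named as copies. Summed with such rows in macrophages/microglia, Rpl35a differed by 4.46 and Rpl37 by 2.26 on the log2(CPM + 1) scale. On that scale Rps19 differed by 4.32 and Rps6 by 3.37. The other proteins without a compared row lay between −0.02 (Rpl7a) and 1.42 (Rps29). Over the 69 members in macrophages/microglia the median difference between severe and the mean of mild and moderate was −0.09 on the log2 scale, with 31 members higher and 38 lower, and 59 of the 67 members other than Rps19 and Rps6 lay within 1 of no difference. Counting within the family holds the median near 0. On the edgeR scale of all genes 57 of the 72 tested members were positive, with a median of 0.46, still far below Rps19. In oligodendrocyte precursors 60 of 70 were positive (median 0.63) and in fibroblasts 58 of 69 (0.57). T/NK cells had 49 of 68 (0.32), and oligodendrocytes only 41 of 69 (0.07). The median over all genes lay between −0.09 and 0.05 in these gates, and the share of all genes that were positive is not given. Next highest came Rpl38 (1.60), which takes part in the translation of Hox mRNAs, Rpl26 (1.15), which binds p53 mRNA, Rps15a (1.07) and Rpl36 (0.99). Lowest were Rps15 (−1.98), Rps10 (−1.97), Rps18 (−1.41), Rpl23a (−1.17) and Rpl12 (−1.16). Both severe libraries were above all 4 mild and moderate libraries for 11 members and below them for 18. Of all 13144 genes tested in this gate, 3.24% were above and 42.7% below on the same scale. In oligodendrocyte precursors 11 members were above and 23 below (1.74% and 52.7% of all genes), in oligodendrocytes 12 and 16 (13.0% and 20.9%), in T/NK cells 11 and 12 (2.28% and 15.4%), and in fibroblasts 9 and 21 (2.03% and 41.6%). The rule used this contrast, so nothing is read from these counts.

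Values of single libraries show that some pairs lay close together and others, mostly of the sham group, far apart. Rpl38 stood at 9.17 and 6.79 per 1000 in severe, 4.50 and 4.79 in sham, 1.65 and 1.83 in mild, and 4.51 and 3.37 in moderate. Rps15, which sits near the decoding site, stood at 3.69 and 5.82 in severe, 16.3 and 16.6 in mild and 22.6 and 18.1 in moderate, while the sham libraries split, with 14.5 in replicate 1 and 6.21 in replicate 2. Sham replicate 2 thus lay next to the severe libraries for Rps15, and sham replicate 1 near the mild ones. Rps10 was at 0.378 and 0.513 in severe, 1.33 and 0.779 in sham, 1.85 and 2.17 in mild, and 1.18 and 1.88 in moderate. Rps15a was highest in sham replicate 2 (35.0) and stood at 15.9 in sham replicate 1, 24.8 and 21.7 in severe and 8.86 to 12.4 in mild and moderate.

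The differences were alike in the 5 gates compared. Across the 67 members other than Rps19 and Rps6, the difference between severe and the mild and moderate mean in macrophages/microglia and that in another gate had a Pearson correlation of 0.98 for oligodendrocyte precursors, 0.97 for oligodendrocytes, 0.95 for T/NK cells and 0.98 for fibroblasts. These are correlations across genes, and the gates share their libraries. Rpl22, Rpl26, Rpl35, Rpl36, Rpl38, Rps15a and Rps24, beside Rps19 and Rps6, were above mild and moderate in both severe libraries in all 5 gates, and Rpl12, Rpl14, Rpl23a, Rpl30, Rpl4, Rps10, Rps12, Rps15 and Rps16 were below in all 5. In a single gate 1.74% to 13.0% of all genes were above and 15.4% to 52.7% below. The share of all genes on the same side in all 5 gates is not given. The rule used this contrast, so nothing is read from these lists. No member was above in a gate and below in another.

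**Figure D3:**
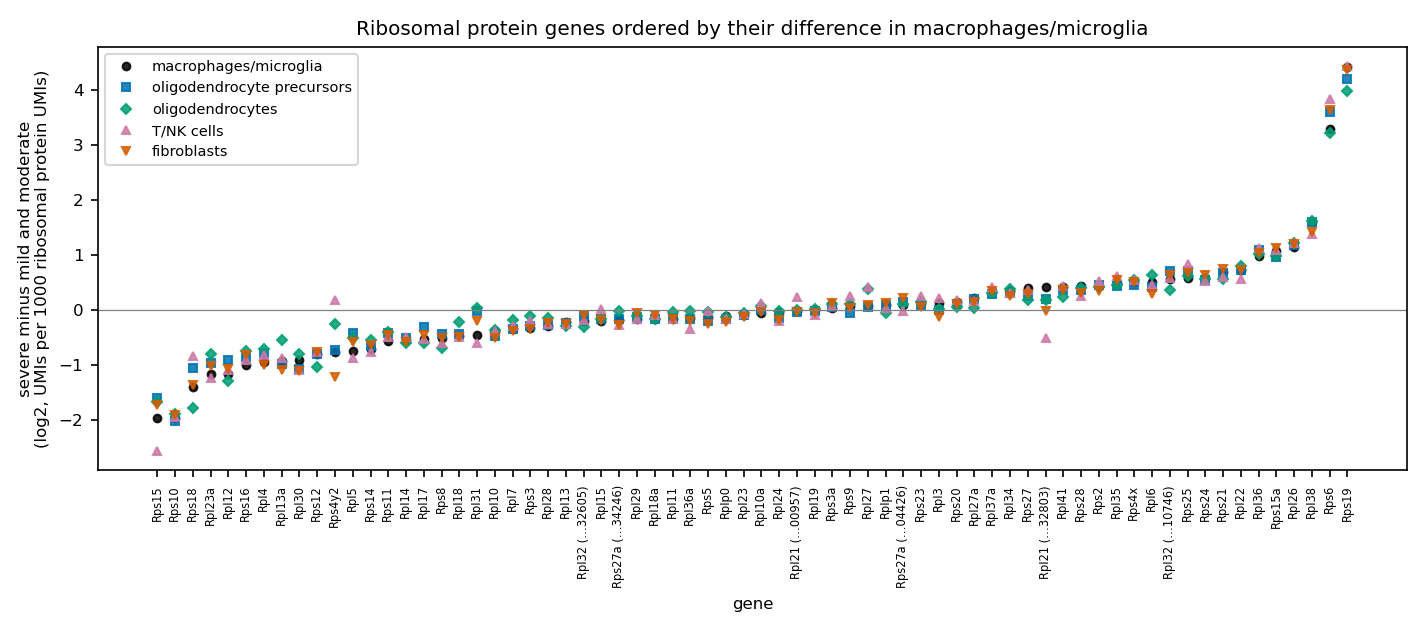
Difference of the severe mean from the mild and moderate mean (y axis, log2 of UMIs per 1000 ribosomal protein UMIs) for the compared members (1 is not shown) in order of their difference in macrophages/microglia, with a symbol for each of 5 gates. Rps19 and Rps6 stand apart at the right end, from 3.98 to 4.44 and from 3.22 to 3.84, while the others in macrophages/microglia lie between −1.98 and 1.60.

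In the 3 gates with all 8 libraries, the make-up of the family varied more between libraries than between gates. Oligodendrocytes and their precursors are among these gates, and T/NK cells and fibroblasts are not. The SD of a member's log2 level over the libraries of all groups was 0.351 at the median and its SD over gates 0.141. The first was larger for 62 of 69 members. Within a library, a pair of gates differed by a median of 0.175 per member, from 0.103 to 0.338 over 73 pairs. Within a gate, libraries of the same group differed in macrophages/microglia by 0.154 to 0.330 and libraries of different groups by 0.234 to 0.679. The range of the same group lies inside that of the gate pairs. Some members were steady: Rpl24 had an SD of 0.0759 over libraries, Rplp1 0.104 and Rpl11 0.107. In macrophages/microglia 14 of the 69 members kept their highest library within 1.5 times their lowest, 6 differed by more than 5 times, and Rps19 and Rps6 were the 2 that passed 10 times.

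Gene copies were defined in 3 ways, by a symbol in the feature list (a like-named paralog, a pseudogene or another row of the same symbol), by that or a RefSeq synonym that names a copy, and by the number of copies that RefSeq lists for the protein. No sequences were aligned, so a copy by these definitions need not share reads with the member. By the second way 39 compared members had a copy and 30 had none. The median difference between severe and the mild and moderate mean was 0.01 with a copy and −0.16 without, and the median size of the difference, whatever its sign, was 0.43 and 0.41. Rps19 was in the first group, with 2 copies, and Rps6 in the second, with none. By symbol alone, 19 members with a copy had a median size of 0.39 and 50 without one 0.45.

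RefSeq lists at least 1 copy for 78 of the 79 members, with a median of 15, so hardly any member is without copies in the genome. Rps2 had 36, Rps19 20, Rps15 18 and Rps6 11. Over the 69 members the number of copies and the size of the difference had a Spearman correlation of 0.00099. All 10 members whose difference passed 1 in size were among the 51 compared members with 10 or more RefSeq copies, and the 18 with fewer lay between −0.96 and 0.73. The split at 10 copies was made for this description and carries no test.

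For part of the family, the copies held the reads. Of 77 copy rows in the feature list, 37 reached 1 CPM in macrophages/microglia. For 13 of 77 proteins the copies had a higher mean CPM over libraries than the row with the plain symbol. A row that RefSeq names Rps29-ps15 carried most of the 2351 CPM of Rps29 copies, whose own row had 3 UMIs, and Rpl9 copies held 2757 CPM. Rps18l1 held 2493 CPM against 23.6 for Rps18, and Rps10l1 1135 against 168 for Rps10. Rps7, Rps13, Rps26 and Rpl37 have no row under their own symbol, and rows that RefSeq names as their copies held 1734, 1640, 2692 and 783 CPM. For such proteins reads that match the plain row and a copy equally well are in neither row, so the level of either is uncertain.

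Of the members that averaged at least 10 CPM with copies of at least 10 CPM, 5 had a difference that changed sign once the copies were added. Rps29 and Rpl9, whose own rows are near 0, are not counted among them. Rps10 was at 47.2 and 76.3 CPM in severe and 175 to 280 in mild and moderate, while Rps10 with Rps10l1 was at 1642 and 2101 in severe and 685 to 956 in mild and moderate. Its difference thus went from −1.83 to 1.11 on the log2(CPM + 1) scale. Rps18 went from −1.23 to 0.66, Rpl30 from −0.79 to 0.87, Rpl31 from −0.34 to 0.41 and Rpl36a from −0.03 to 0.06. For Rpl31 and Rpl36a the severe libraries overlapped the mild and moderate ones with and without the copies, so no reversal is read there. Rpl31 alone was at 394 and 459 CPM in severe and 343 to 1038 in mild and moderate. Rps19 with its copies was at 1325 and 1108 CPM in severe and 44.0 to 85.4 in mild and moderate, a difference of 4.32 in place of 4.52. Rps6, at 3.37, and Rps15, at −1.85, have no listed copy to add.

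**Figure D4:**
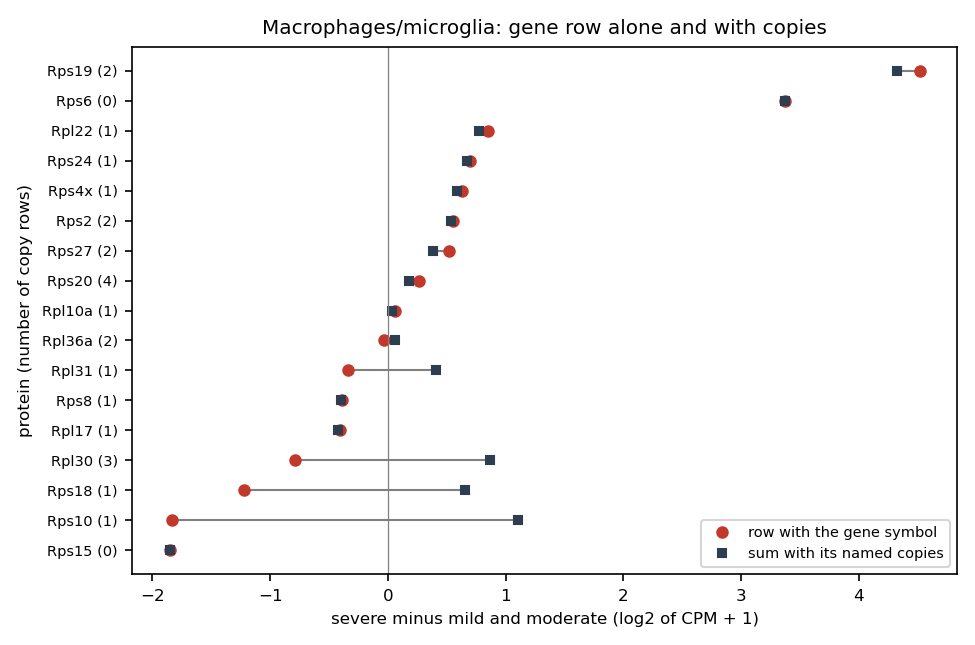
Difference of the severe mean from the mild and moderate mean (x axis, log2 of CPM + 1) in macrophages/microglia for the row with the gene symbol (circles) and for its sum with the copy rows (squares), for proteins whose copies and own row both average at least 10 CPM and for Rps19, Rps6 and Rps15. The number of copy rows stands in brackets, and Rps10, Rps18, Rpl30, Rpl31 and Rpl36a cross the line of no difference while Rps19 stays above 4.

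Comparisons that leave out the severe libraries were tested with edgeR (quasi-likelihood test, Benjamini-Hochberg adjustment over all genes of a gate). They share the sham, mild and moderate libraries with the contrasts on which Rps19 and Rps6 were picked, so for these 2 genes the fold changes are given as a description, without a p-value. In macrophages/microglia 72 members passed the filter on low counts. Against sham, 7 of the 72 were lower in mild (9.72%) and 0 higher, where 4.0% of all 13144 genes were lower and 4.56% higher. The median log2 fold change was −0.36 over the members and 0.01 over all genes. In moderate 3 of 72 were lower than in sham and 0 higher, where 1.38% of all genes were lower and 2.91% higher, with medians of −0.23 and 0.03. The 7 include Rps19 and Rps6 and the 3 include Rps19, so nothing about the family is read from these shares. The comparisons with sham share its 2 libraries. Between moderate and mild 0 of 72 passed the edgeR test, where 0.0228% of all genes were higher and 0.00% lower. There 7 members had an unadjusted p under 0.05, and DESeq2 also called 0.

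The 7 members lower in mild than in sham were led by Rps6 and Rps19. Rps6 was at 127 and 70.9 CPM in sham and 19.9 and 17.0 in mild, a log2 fold change of −2.25 ± 0.32 (SE). Rps19 was at 187 and 182 in sham and 37.9 and 41.2 in mild, a change of −2.11 ± 0.28, and it was also lower in moderate, at 76.0 and 59.9 (−1.36 ± 0.27). Rpl38 fell by 1.69 in mild (edgeR adjusted p = 0.0293) and Rps24 by 1.66 (edgeR adjusted p = 0.0339), and Rps24 fell by 1.61 in moderate as well (edgeR adjusted p = 0.0487). The second row of Rpl32 (ENSRNOG00000032605) fell by 1.51 in mild and 1.66 in moderate, Rpl22 by 1.21 in mild and Rpl26 by 1.14. Rps24 was at 2681 and 4110 CPM in sham, 1025 and 1013 in mild and 1219 and 946 in moderate, with no overlap.

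These calls rest on the spread pooled over 4 groups: with only the groups compared in the fit, 0 members passed in mild and 0 in moderate, and neither did any of the 12129 and 12372 genes tested there, with 18 and 9 members at an unadjusted p under 0.05. Without mild replicate 1 or 2 the count in mild was 0, without sham replicate 2 it was 2, without any 1 moderate or severe library it was 3, and without sham replicate 1 (179 cells in this gate) it was 15, with 14 lower and 1 higher. In moderate the count was 9 without sham replicate 1 and 0 without any other single library. Of the other 5 members, Rpl38 passed as lower in mild under 11 of 16 alternatives, and Rps24, Rpl22, Rpl26 and Rpl32 under 7 each.

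Oligodendrocytes of the same libraries had 7 members called between mild and sham. Rps6 fell by 2.16, Rps19 by 1.41, Rpl38 by 1.11, Rps24 by 0.95 and Rpl32 (ENSRNOG00000032605) by 0.88, while Rps4y2 rose by 1.66 and Rplp0 by 1.08. These are 5 lower and 2 higher of 69 tested, where 5.25% of all 9157 genes were lower and 4.08% higher. The 5 include Rps6 and Rps19, so nothing about the family is read from this share. Rps6, Rps19, Rpl38, Rps24 and Rpl32 (ENSRNOG00000032605) were thus lower in both gates, which come from the same libraries. Without sham replicate 1, which holds 1243 of the oligodendrocytes against 34 in sham replicate 2, none of the 69 passed, and without mild replicate 1 or 2 a single member did.

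In oligodendrocyte precursors 0 of 70 were called between mild and sham (1.81% of all genes were higher and 1.46% lower), where edgeR gave 13 members an unadjusted p under 0.05. The 2 sham libraries, with 46 and 69 precursors, pulled apart here: without sham replicate 1 edgeR called 6 members, all lower in mild, and without sham replicate 2 it called 12, all higher. Rpl4 was higher in moderate than in sham (log2 fold change 1.40 ± 0.32), a single call where 3.43% of all genes were higher and 3.16% lower. Rpl21 (ENSRNOG00000032803) was higher in moderate than in mild (1.27 ± 0.29), a single call where 1.27% were higher and 0.479% lower. Neither call held throughout: no member passed between moderate and sham without mild replicate 2 or either moderate library, or between moderate and mild without either mild library, moderate replicate 2 or severe replicate 2.

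In oligodendrocytes edgeR called 0 of 69 between moderate and sham (1.39% of all genes higher, 0.666% lower) and 0 between moderate and mild (0.797% and 0.415%), with 14 and 9 members at an unadjusted p under 0.05. Between moderate and mild edgeR called 0 of 68 in T/NK cells (0.270% of all genes higher, 0.0150% lower) and 0 of 69 in fibroblasts (0.00% and 0.00%), with 10 and 13 members at an unadjusted p under 0.05. DESeq2 was run on macrophages/microglia only.

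The same edgeR fit gives the severe contrasts as a description. In macrophages/microglia 2 of 72 members passed the threshold between severe and sham, Rps19 (log2 fold change 3.20 ± 0.29) and Rps6 (2.13 ± 0.32), both higher, beside 6.29% of all genes higher and 4.33% lower. Between severe and the mean of mild and moderate 8 passed as higher and 1 as lower, beside 2.79% and 2.18% of all genes. These were Rps19 (4.94), Rps6 (3.86), Rpl35a (2.75), Rplp2 (2.21), Rpl38 (2.08), Rpl26 (1.66), Rpl22 (1.24) and the row ENSRNOG00000010746 of Rpl32 (1.10), and Rps10 (−1.40). Rpl35a and Rplp2 are among the members near 0, with 155 and 267 UMIs in this gate over all libraries. Without a mild, moderate or severe library 4 or 5 passed in place of 9, and without sham replicate 1 or 2 it was 18 or 19. Both contrasts use the same severe libraries, and the scaling moves them: the median of all genes was −0.04 with TMM factors and −0.44 with library size alone and that of the members 0.46 and 0.06, above that of all genes under either.

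Other gates listed the same leading genes in the severe contrast. Between severe and the mild and moderate mean 10 of 70 members passed as higher and 1 as lower in oligodendrocyte precursors (3.36% and 4.80% of all genes), 7 and 2 of 69 in oligodendrocytes (3.98% and 4.47%), 6 and 2 of 68 in T/NK cells (1.75% and 1.18%), and 13 and 1 of 69 in fibroblasts (2.13% and 1.31%). Rps19 had the largest log2 fold change in each, 4.91, 4.06, 4.83 and 5.09, and Rps6 the next, 4.31, 3.34, 4.35 and 4.28. Rpl38 followed in oligodendrocyte precursors (2.26), oligodendrocytes (1.66), T/NK cells (1.73) and fibroblasts (2.07), then Rpl26 (1.88, 1.29, 1.62 and 1.88). Rps10 passed as lower in all 4 (−1.20, −1.77, −1.47 and −1.24) and Rps15 in oligodendrocytes (−1.57) and T/NK cells (−2.06). Against sham 9 of 70 passed as higher in oligodendrocyte precursors (4.93% of all genes higher, 4.71% lower), led by Rps19 (3.76), Rps6 (3.46), Rpl38 (1.72), Rps2 (1.60) and Rpl26 (1.51), and 2 of 69 in oligodendrocytes (0.819% and 0.786%), Rps19 (2.91) and Rps6 (1.71). In oligodendrocyte precursors that count was 52 without sham replicate 2 and 2 without sham replicate 1.

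Some members differed from macrophages/microglia in the same direction in every library, although they also varied between libraries. Of 69 members, 31 did so in oligodendrocyte precursors and 26 in oligodendrocytes (8 libraries each), and 30 in T/NK cells (7 libraries). Few of these differences were large: the mean passed 1 in size on the log2 scale for 1, 2 and 1 of the 69. The share of all genes that kept a direction in every library is not given, so nothing about the family is read from these counts. Rps4y2, a paralog of the small subunit protein Rps4x, was higher in oligodendrocytes than in macrophages/microglia in 8 of 8 libraries, by 2.07 ± 0.74 on the log2 scale of the family (mean ± SD). It stood there at 0.390 and 0.377 per 1000 in sham, 1.17 and 1.16 in mild, 0.733 and 1.53 in moderate and 0.777 and 1.09 in severe, whereas macrophages/microglia held 0.113 to 0.294. It was higher in oligodendrocyte precursors than in macrophages/microglia in 8 of 8, by 1.05 ± 0.43. T/NK cells held 0 to 0.0416 per 1000, below macrophages/microglia in 7 of 7. With 25971 to 384285 ribosomal protein UMIs per library in the T/NK gate, these values rest on few Rps4y2 UMIs.

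Rpl13a, the large subunit protein that silences inflammatory mRNAs once released from the ribosome, was higher than in macrophages/microglia by 1.27 ± 0.29 in oligodendrocytes and 0.91 ± 0.13 in oligodendrocyte precursors, each in 8 of 8 libraries. Rpl36a was higher by 0.56 ± 0.24 in oligodendrocytes (8 of 8), and Rps12 differed by −0.47 ± 0.17 there (lower in 8 of 8). In T/NK cells Rps27 was higher than in macrophages/microglia by 0.76 ± 0.12 and Rpl30 by 0.55 ± 0.15, each in 7 of 7 libraries. There Rps2 differed by −0.64 ± 0.12, lower in 7 of 7. In fibroblasts 16 of 69 members kept a sign in all 7 libraries (the share of all genes is not given), and the largest mean difference from macrophages/microglia was −0.41 (Rpl10). The genes named here are among the 5 with the largest mean difference in their gate and were chosen after their values were seen.

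**Figure D5:**
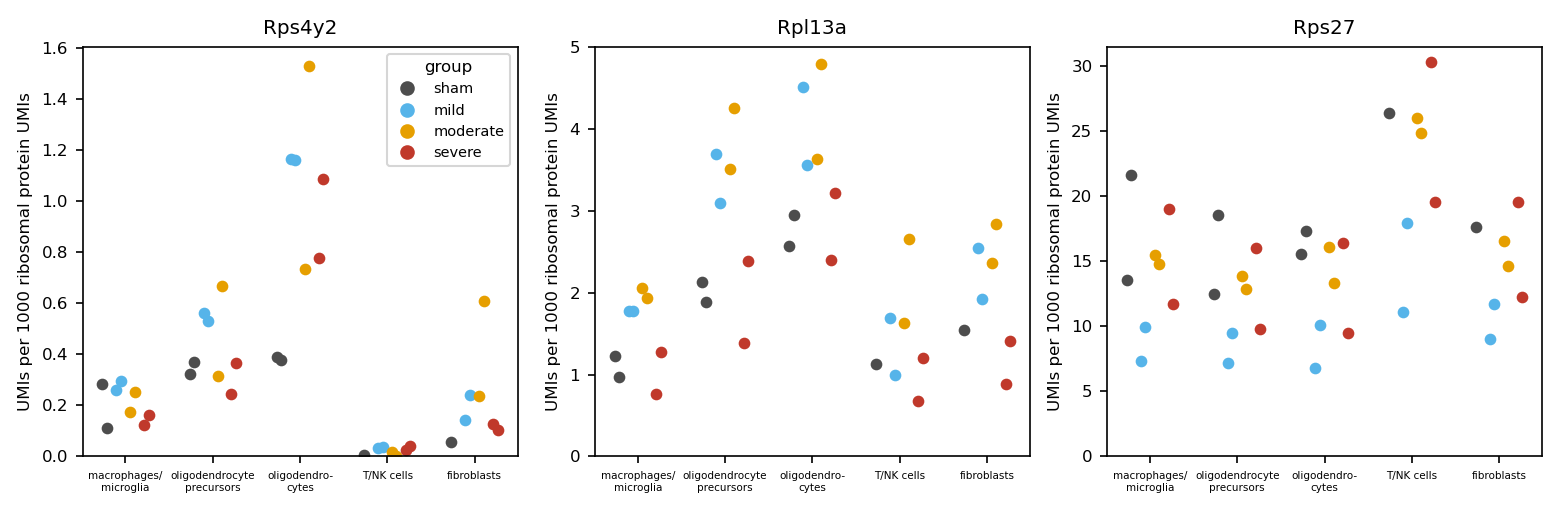
UMIs of Rps4y2, Rpl13a and Rps27 per 1000 ribosomal protein UMIs (y axes) in 5 cell gates, with a point for each library coloured by group. Rps4y2 is highest in oligodendrocytes (0.377 to 1.53) and at most 0.0416 in T/NK cells, Rpl13a is higher in both oligodendrocyte lineage gates than in macrophages/microglia, and Rps27 is highest in T/NK cells.

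In macrophages/microglia most genes that act with the family were not called. Over the 3 comparisons without severe 2.50% of the tests on all genes were higher and 1.79% lower. Over the 2 severe comparisons these shares were 4.54% and 3.26%. Of other ribosomal components and genes with a terminal oligopyrimidine tract (Fau, Rack1, the elongation factors, Tpt1, Npm1 and others), 17 were tested in macrophages/microglia and 0 were called by edgeR in any of the 5 comparisons, with medians from −0.11 to 0.22. Between mild and sham the largest values were Eef2 (1.06 ± 0.31), which moves the ribosome along the mRNA, and the nucleolar chaperone Npm1 (−0.95 ± 0.31), neither past the threshold. Of 20 ribosome biogenesis genes 0 were called in the 3 comparisons without severe and 1 (Mybbp1a, −1.28 ± 0.33, lower) between severe and sham. Of 12 genes of the mTORC1 axis with Myc, 2 were lower in mild than in sham, where 4.0% of all genes were lower and 4.56% higher. These were Myc, which drives ribosome biogenesis (−1.72 ± 0.36, edgeR adjusted p = 0.029), and Larp1, which binds the pyrimidine tract (−1.42 ± 0.35, edgeR adjusted p = 0.043). Like every call between mild and sham in this gate, both rest on the spread pooled over 4 groups. With only the groups compared in the fit, 0 of the 12129 genes tested there passed.

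Of 73 tested mitochondrial ribosomal proteins, which form the separate ribosome of the organelle, Mrpl37 rose by 1.27 and Mrpl1 fell by 1.78 between mild and sham, and none passed between moderate and sham or moderate and mild. In the severe contrasts 3 passed as higher. Of the 14 like-named paralogs 1 was lower in mild than in sham, Rpl35al1 (−2.60 ± 0.65), and Rps10l1 (1.89) and Rps18l1 (1.07) passed as higher between severe and the mild and moderate mean. Rps15al4 is also listed as higher in both severe contrasts, but with 0 UMIs in the other 6 libraries it passed the filter only through the severe ones, so it had to differ. The parent rows Rps10 and Rps18 lay on the other side there. In the 4 other gates, over the 8 comparisons without severe libraries, edgeR called 3 higher and 1 lower of 136 tests on other ribosomal components, 4 higher and 0 lower of 156 on ribosome biogenesis, 2 and 0 of 89 on the mTORC1 axis, 2 and 3 of 574 on mitochondrial ribosomal proteins and 0 and 2 of 48 on paralogs, beside 1.72% higher and 1.498% lower of the tests on all genes. Over their 6 severe comparisons, where 2.99% and 3.11% of all tests were higher and lower, the counts were 2 and 1 of 102, 1 and 3 of 117, 1 and 1 of 66, 6 and 0 of 429, and 11 and 0 of 36.

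The genes whose levels were most like those of Rps19 over the 8 libraries in macrophages/microglia (Pearson correlation of log2(CPM + 1), among 13144 genes) were LOC103690005 (0.99), LOC100912008 (0.99), LOC108348142 (0.98), LOC108349606 (0.98) and the histone gene H2afj (0.98). LOC108348142 was at 897 and 1021 CPM in severe, 278 and 279 in sham, 75.1 and 60.2 in mild and 90.01 and 71.2 in moderate, and H2afj at 118 and 102, 59.0 and 63.1, 27.6 and 36.2, and 34.1 and 34.2. Rps6 was most like LOC100910581, the complex I subunit gene Ndufs5, LOC108348142, AABR07002882.1 and Rps19 (0.97 each). Of these, LOC100910581 (0.0431 to 1.94 CPM) and AABR07002882.1 (0.0647 to 0.757 CPM) rest on very few UMIs. Ndufs5 was at 282 and 276 CPM in severe, 187 and 202 in sham, 95.2 and 86.7 in mild and 137 and 118 in moderate. For LOC108348142, H2afj and Ndufs5 both severe libraries were thus above both sham libraries, and those above all mild and moderate libraries. They were chosen for their likeness to Rps19 or Rps6, so nothing is read from this order.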

How the data were processed

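The authors made the deposited UMI counts per gene and cell with Cell Ranger (version 5.0.1 in the file headers; the methods name another version) on Rnor_6.0. It counts reads that match a single gene, so reads shared with a near-identical copy in the feature list are lost. Filtering and clustering by the authors in Seurat are not in these files. Here cells with over 10% mitochondrial UMIs, the top 7.7% by Scrublet score and cells beyond 2 SD of the mean in UMIs or genes were removed. Cell types were gated on at least 3 markers with no other type at over 0.5 times as many, and counts summed per gate and library of at least 20 cells. edgeR 4.0.16 (quasi-likelihood, TMM, R 4.3.3) was fitted to all genes and all 4 groups of a gate, with a low-count filter and Benjamini-Hochberg adjustment at 0.05, and the scripts were tested on simulated data. Levels within the family are UMIs per 1000 ribosomal protein UMIs, with 0.5 UMIs added before log2. Members at 0.1 per 1000 or more were compared, and log2(CPM + 1) was used for sums with copies and for likeness. Copies came from symbols and RefSeq GRCr8 synonyms, with no sequence alignment. Named genes were Rps19 and Rps6, the 5 called members with the largest rise and fall per gate and contrast, the 5 at each end of the severe difference, the 5 genes most like Rps19 and Rps6, and up to 4 per list. Other called members, copies, low members and those that differed between gates were named after their values were seen. Alternatives were other scaling, DESeq2 1.42.0, no filter, the replicate block, fewer groups, each library left out, stricter gates and no doublet removal. The members and gene lists were chosen with earlier results of these data known. The values of 1 member are counted in the totals and not reported here.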

Additional observations from a re-analysis of the deposited data

How the results depend on the processing

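In macrophages/microglia, 7 members were called in mild against sham. The count was 17 with DESeq2, 16 without the filter on low counts, where the share of all genes called went from 8.57% to 15.0% and 13.5%, 0 with only the groups compared, and 0 to 15 with a library left out. In moderate against sham (3 called) it was 8 with DESeq2, 8 without the filter (10.7% and 10.6% of all genes, from 4.29%), 0 with only the groups compared and 0 to 9 with a library left out. In moderate against mild (0 called) it was 2 without the filter (2.95% of all genes, from 0.0228%) and otherwise 0. In severe against sham (2 called) it was 6 with library size only, 7 with library size computed without ribosomal protein genes, 7 with DESeq2, 5 without the filter (16.9% and 14.2% of all genes with the last 2, from 10.6%) and 2 to 4 with a library left out. In severe against mild and moderate (9 called) it was 19 with DESeq2, 23 without the filter, 20 with only the groups compared (9.25%, 9.21% and 12.5% of all genes, from 4.98%) and 4 to 19 with a library left out. With a replicate block the counts in these 5 comparisons were 2, 0, 0, 2 and 5. Deviations of same-numbered libraries correlated between −0.23 and 0.24 over 13144 genes, with both signs among 6 pairs of groups. Whether same-numbered libraries were processed together is not given and was not tested. The cause of the changes in these counts was not tested.

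For the other gates the alternatives were chosen after seeing the data. In oligodendrocyte precursors library size only gave 2 in mild against sham (0 called), 2 in moderate against sham (1 called), 0 in moderate against mild (1 called) and 5 in severe against sham (9 called). With a library left out these ranged over 0 to 12, 0 to 11, 0 to 3 and 2 to 52, and severe against mild and moderate (11 called) over 4 to 35. In oligodendrocytes library size only gave 4 in severe against sham (2 called), and leaving out a library gave 0 to 7 in mild against sham, 0 to 1 in moderate against sham, 1 to 9 in severe against sham and 4 to 14 in severe against mild and moderate. In T/NK cells it gave 0 to 1 in moderate against mild and 2 to 12 in severe against mild and moderate, and in fibroblasts 4 to 14 in the latter. Leaving out a library that leaves a lone sample in a group assumes that it varies like the others.

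The descriptive values moved less. With a library left out the ribosomal protein share of macrophages/microglia was 13.4% to 14.2%, the difference of Rps19 4.17 to 4.67, that of Rps6 3.07 to 3.53, and that between the medians of members with and without copies 0.0982 to 0.206. A gate of at least 4 markers and no doublet removal kept every count of calls within 1.5 times. With 2 libraries per group, and 46 precursors or 34 oligodendrocytes in the smallest, a difference that was not called is not shown to be absent.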

Other observations

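Rps15al4 (ENSRNOG00000053756), a like-named paralog that is no member of the family as defined, had 33 and 99 UMIs in macrophages/microglia of the severe libraries (1.98 and 1.56 CPM) and 0 in the other 6. A count of 0 allows up to 3 UMIs, that is 1.86 CPM in sham replicate 1, 0.139 in sham replicate 2 and 0.0458 to 0.0700 in the mild and moderate libraries. Over all kept cells it had 62 and 142 UMIs in severe and 0 in the other 6 libraries.

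Rows that RefSeq names as copies of Rpl35a showed a severe difference near that of Rps19. They summed to 790 and 481 CPM in severe, 101 and 194 in sham, 24.9 and 22.2 in mild, and 42.8 and 21.8 in moderate, and with the row of Rpl35a itself the difference between severe and the mild and moderate mean was 4.46 on the log2(CPM + 1) scale. The row that RefSeq names as the copy of Rpl37, which has no row of its own, was at 1468 and 1611 CPM in severe, 676 and 1116 in sham, 273 and 307 in mild, and 599.7 and 211 in moderate.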
